A study of Arabidopsis thaliana with 39 samples.

Results

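Wild-type Col-0 seeds of Arabidopsis thaliana that had been kept for 3 d under secondary dormancy induction were compared with seeds of the same time course kept for 1 d. Secondary dormancy is the block to germination that a seed without primary dormancy acquires under unfavourable conditions. The 3 d group and the 1 d group both held after-ripened dry seeds that were laid on wet paper at 30°C in darkness, and they differ by label in the length of that treatment alone. The comparison takes the 3 libraries labelled 3 d and the 3 labelled 1 d, which are 6 of the 39 samples of the series, and within them every seed with at least 5000 UMIs (unique molecular identifiers, one per captured transcript) on nuclear genes. All 32 seeds passed in each of the 6 libraries, which gives 192 of the 1048 seeds kept in the whole series. Each library sequenced the 3′ ends of polyadenylated RNA from 32 single crushed seeds. The study took the seeds of the time course from a single seed pool, so p-values measure the spread between batches of seeds of that pool. In extracts of whole seeds, fewer cells of a type and less RNA per cell cannot be told apart.

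The first day in water wakes the stored transcriptome of a dry seed. Ribosomes are rebuilt, respiration restarts and reserves are opened, and gibberellin promotes this course while abscisic acid and the dormancy protein DOG1 hold it back. Genes for cytosolic ribosomal proteins are usually regulated together, and many carry a telo-box or a site II element close to the transcription start. Small heat shock proteins, which keep other proteins from aggregating, accumulate in maturing seeds and again in heat.

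The summed nuclear UMIs were 794376, 872635 and 1720467 in the 3 d libraries, against 2824607, 2758354 and 2561195 in the 1 d libraries. The share of a seed's UMIs that lay off nuclear genes had library medians of 70.7%, 66.5% and 60.1% at 3 d, against 22.75%, 15.68% and 21.12% at 1 d. Most of these UMIs were assigned to no gene (57.8% to 68.8% of all UMIs at 3 d, 15.8% to 21.9% at 1 d). Counting used the sense strand only, so reads antisense to a gene can be among them. The third 3 d library was the deepest of its group and had the lowest off-nuclear share. All 10 seed marker genes were detected in every library, and their sum was 11.99% to 13.3% of nuclear UMIs at 3 d, against 15.73% to 16.21% at 1 d. The 5 endosperm markers summed to 0.0748% to 0.282% at 3 d, against 0.322% to 0.470% at 1 d, and RGE1, an endosperm transcription factor, had at most 5 UMIs in any library.

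Because the off-nuclear share differed so widely, 2 fits were made. The first used all 19486 nuclear genes that passed the filter on low counts. The restricted fit left out each gene whose share of a seed's nuclear UMIs followed that seed's off-nuclear percent with a Spearman rho over 0.3, within the 3 d or within the 1 d seeds, and kept 10325 genes. A gene was called when the adjusted p of edgeR's quasi-likelihood test was under 0.05 and the level differed by more than 2-fold. Levels are CPM (the share of nuclear UMIs scaled to the usual CPM unit and normalised by TMM), listed in the order of the libraries. A called gene given with 1 fold change, from the fit on all genes, was called in the same direction in the restricted fit unless stated otherwise or unless its rho is given as over 0.3, which kept it out of that fit. Over the genes in both fits the restricted value was higher by a median of 0.69 on the log2 scale.

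Across all genes 3370 were called lower at 3 d (17.3%) and 6691 higher (34.3%), with a median log2 fold change of -0.07. With no scaling factor the calls were 948 lower and 7875 higher, and the median of all genes lay at 0.54. In the restricted fit 725 genes were lower (7.02%) and 763 higher (7.39%), with a median of 0.02. All 725 genes called lower there were also called lower in the fit on all genes. Since restricted values were higher by a median of 0.69, such an overlap was largely set by the procedure and is no separate support. Of the 6691 higher calls 190 were shared, and the filter had left the other 6501 out of the restricted fit. Of the genes called higher, 97.2% passed the limit on rho, against 7.74% of the genes called lower and 25.5% of the genes not called. Genes called higher had a median of 0.365 UMIs per seed, and at such counts the rho can also reflect seed depth. The limit covers positive rho only, so genes whose share fell as the off-nuclear percent rose stayed in the restricted fit. Over the genes called lower the median rho was 0.02 among 3 d seeds, but single genes lay well below 0. The elongation factor gene eEF-1Bb1, for example, had -0.441 among 3 d seeds and -0.293 among 1 d seeds. The called-higher set also held 1146 genes annotated as pseudogenes and 499 as long non-coding RNAs, while the called-lower set held 2 and 14. Counting a gene only when both fits called it was decided after the data had been seen.

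**Figure D1:**
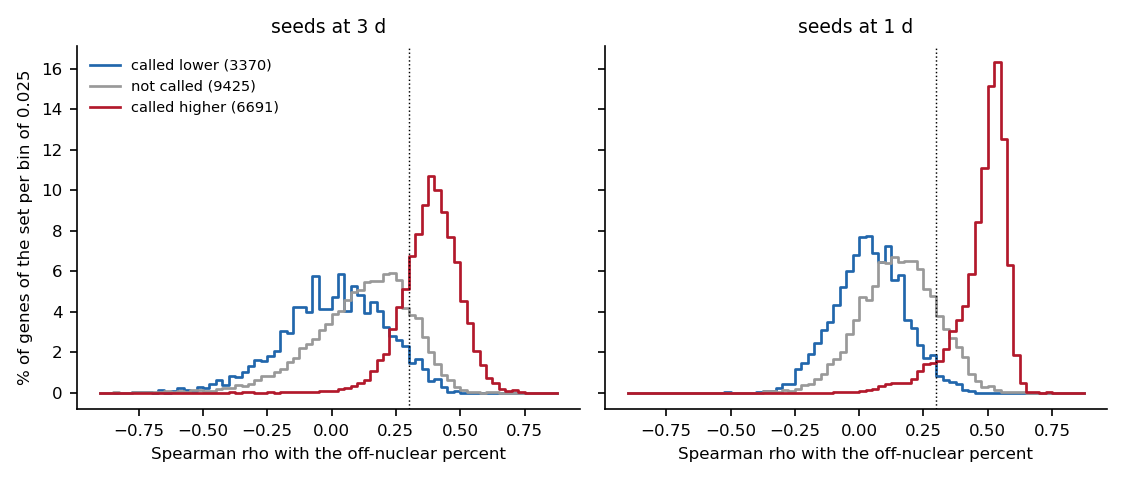
Distribution over genes of the Spearman rho between a gene's share of a seed's nuclear UMIs and the seed's off-nuclear percent, among seeds at 3 d (left) and at 1 d (right), for genes called lower, not called and called higher at 3 d; the dotted line is the limit of 0.3. The called-higher curve peaks right of the limit in both panels (median rho 0.39 at 3 d and 0.505 at 1 d) and the called-lower curve near 0 (0.02 and 0.041).

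The genes of the translation machinery made the largest group of lower genes. Of 402 translation genes tested (ribosomal proteins, initiation factors and elongation factors by product name), 315 were lower at 3 d (78.4%, beside 17.3% of all genes) and 14 higher, with a median log2 fold change of -1.82. In the restricted fit 212 of 366 were lower and 7 higher, with a median of -1.24. Without the third 3 d library 339 of 410 were lower (21.6% of all genes in that fit) and the median was -2.07. With that library left out of the restricted fit as well, 220 of 366 were lower.

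The promoters of 5 ribosomal protein genes and 3 small heat shock protein genes are printed because the results below describe these groups in most detail, as mostly lower and mostly higher. Each shows the 250 bases before the annotated gene start, 5′ to 3′ on the gene's strand, from the RefSeq copy of the TAIR10.1 assembly. Capitals mark the telo-box AAACCCTA, the site II element TGGGCC and the heat shock element GAANNTTC, each on either strand. AT2G19730, RPS15 and AT5G28060 are shown for their strong decrease, and AT5G16130 and AT5G23900 as the genes with the smallest p among the 8 ribosomal protein genes lower in both fits that hold a telo-box and a site II element in this window.
AT2G19730 (chr2:8511236-8511485, plus strand): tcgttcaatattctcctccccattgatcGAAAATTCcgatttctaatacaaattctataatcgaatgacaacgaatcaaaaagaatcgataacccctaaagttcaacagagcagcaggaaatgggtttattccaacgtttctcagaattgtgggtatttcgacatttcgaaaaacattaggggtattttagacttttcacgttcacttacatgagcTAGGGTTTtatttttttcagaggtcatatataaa
RPS15 (chr1:1143131-1143380, minus strand): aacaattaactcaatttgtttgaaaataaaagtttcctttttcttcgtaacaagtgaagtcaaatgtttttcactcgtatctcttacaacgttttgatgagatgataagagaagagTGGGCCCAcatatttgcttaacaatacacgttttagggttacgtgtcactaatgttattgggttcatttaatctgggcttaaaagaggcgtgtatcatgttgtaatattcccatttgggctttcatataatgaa
AT5G28060 (chr5:10070900-10071149, minus strand): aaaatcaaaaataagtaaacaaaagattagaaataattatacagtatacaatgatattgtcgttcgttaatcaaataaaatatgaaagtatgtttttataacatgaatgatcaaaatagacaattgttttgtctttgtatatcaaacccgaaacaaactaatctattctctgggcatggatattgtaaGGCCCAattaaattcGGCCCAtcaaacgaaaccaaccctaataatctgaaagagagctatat
AT5G16130 (chr5:5268171-5268420, plus strand): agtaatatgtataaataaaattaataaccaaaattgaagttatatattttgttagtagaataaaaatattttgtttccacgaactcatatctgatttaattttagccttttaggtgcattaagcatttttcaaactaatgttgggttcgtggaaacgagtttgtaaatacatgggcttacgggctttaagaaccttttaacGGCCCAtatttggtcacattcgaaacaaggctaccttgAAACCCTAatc
AT5G23900 (chr5:8065551-8065800, minus strand): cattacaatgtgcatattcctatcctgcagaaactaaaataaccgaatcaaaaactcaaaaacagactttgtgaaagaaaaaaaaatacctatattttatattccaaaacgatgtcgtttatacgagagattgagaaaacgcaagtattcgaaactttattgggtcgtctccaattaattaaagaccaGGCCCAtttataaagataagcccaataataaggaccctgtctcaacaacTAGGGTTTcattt
HSP17.6A (chr5:3884839-3885088, minus strand): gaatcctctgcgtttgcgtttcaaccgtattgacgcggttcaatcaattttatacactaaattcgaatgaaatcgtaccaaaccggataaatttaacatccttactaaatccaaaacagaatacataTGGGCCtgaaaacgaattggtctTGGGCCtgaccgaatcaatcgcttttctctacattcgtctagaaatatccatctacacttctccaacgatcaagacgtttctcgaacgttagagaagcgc
HSP23.6-MITO (chr4:12916676-12916925, plus strand): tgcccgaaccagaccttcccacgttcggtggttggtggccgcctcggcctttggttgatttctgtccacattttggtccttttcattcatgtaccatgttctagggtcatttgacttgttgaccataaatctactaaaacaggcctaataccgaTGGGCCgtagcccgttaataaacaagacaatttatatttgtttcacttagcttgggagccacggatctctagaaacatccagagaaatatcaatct
HSP17.4 (chr3:16984868-16985117, minus strand): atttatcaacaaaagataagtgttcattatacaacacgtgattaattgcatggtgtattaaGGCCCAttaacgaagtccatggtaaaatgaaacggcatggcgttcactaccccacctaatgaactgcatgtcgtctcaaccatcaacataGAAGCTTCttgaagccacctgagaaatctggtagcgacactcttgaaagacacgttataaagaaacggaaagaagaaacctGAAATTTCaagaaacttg

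Site II elements recurred among the lower genes. In windows from 250 bases before to 50 bases after the start, TGGGCC stood in 42.3% of the 725 promoters lower in both fits, against 18% of tested and 13% of all annotated nuclear genes. The telo-box stood in 19.3% of the same promoters, against 5.70% of tested and 6.09% of all genes. Among the 66 tested ribosomal protein genes 65.2% held a site II element and 47.0% a telo-box. Leaving out every translation gene, the other 513 promoters lower in both fits held a site II element in 34.3% and a telo-box in 9.16%. Genes called higher in both fits held a site II element in 11.6% and a telo-box in 5.79%. All 8 tested small heat shock protein genes also held TGGGCC, and 3 of them held GAANNTTC, against 11.3% of tested genes. The G-box CACGTG, the evening element AAAATATCT, the GCC box GCCGCC and the sugar repressive element TTATCC stood in 8.97%, 2.07%, 3.72% and 14.5% of the promoters lower in both fits, against 8.50%, 2.78%, 2.65% and 15.3% of tested genes. A match of letters is a description of these windows and not a bound site.

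Ribosomal protein genes were lower in both subunits. Of 33 tested genes of the large subunit 29 were lower and 2 higher (median log2 fold change -2.44), and of 21 of the small subunit 20 were lower (median -2.28). The restricted fit called 25 of 30 and 17 of 21 lower, with medians of -1.76 and -1.58. Of all genes 17.3% were lower in the first fit and 7.02% in the restricted fit. Over all 66 tested genes given as cytosolic ribosomal proteins by symbol or product, the 3 d libraries lay below all 1 d libraries in 59, beside 33.8% of all genes.

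AT2G19730 encodes a protein of the large subunit, L28e. It measured 43.2, 51.9 and 72.2 CPM at 3 d, against 699, 634 and 484 CPM at 1 d. The 3 d libraries all lay far below the 1 d libraries, with a log2 fold change of -3.41 (SE 0.25, edgeR adjusted p = 5.19e-09) and of -2.71 in the restricted fit (adjusted p = 1e-06). AT4G18100, an L32e protein, was at 58.3, 97.9 and 128 CPM at 3 d and at 975, 984 and 721 CPM at 1 d, again without overlap (log2 fold change -3.22, SE 0.27). AT2G40205, an L41 family protein, reached 7.04, 12.7 and 22.2 CPM at 3 d, against 253, 163 and 173 CPM at 1 d (log2 fold change -3.69, SE 0.30).

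The small subunit gave the same picture. RPS15 (AT1G04270), a protein of the decoding site region, measured 97.5, 119 and 154 CPM at 3 d and 832, 761 and 647 CPM at 1 d. Its log2 fold change was -2.58 (SE 0.23, edgeR adjusted p = 3.45e-08), and -1.88 in the restricted fit. AT5G28060 (S24e) was at 31.2, 35.2 and 37.7 CPM at 3 d, against 290, 295 and 222 CPM at 1 d (log2 fold change -2.94, SE 0.22). AT3G56340 (S26e) was at 42.2, 42.1 and 60.9 CPM at 3 d, against 468, 394 and 268 CPM at 1 d (log2 fold change -2.93, SE 0.25). In each of these genes the first 1 d library was at or near the top of its group.

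A few members went the other way. AT4G16030, an L19e protein, was called higher, at 8.04, 14.7 and 13.9 CPM in 3 d seeds and 2.84, 1.35 and 2.77 CPM in 1 d seeds (log2 fold change 2.39). Its rho was 0.331 among 3 d seeds and 0.562 among 1 d seeds, where it had few UMIs. It thus had no place in the restricted fit. AT5G47940, annotated as a 40S protein S27, was not called in the fit on all genes (0.77) and was called higher in the restricted fit (1.46).

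Ribosomal proteins of chloroplasts and mitochondria were less strongly reduced. Of 26 tested (median log2 fold change -1.38), 18 were lower and 2 higher, beside 17.3% and 34.3% of all genes. The restricted fit called 10 of 20 lower, beside 7.02% of all genes there. AT5G40080, a mitochondrial L27 protein, was at 3.02, 2.94 and 6.19 CPM at 3 d, against 27.4, 25.6 and 18.9 CPM at 1 d (log2 fold change -2.41, SE 0.36).

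The factors that work on the ribosome were divided. Among elongation factors (median log2 fold change -0.98) 12 of 25 were lower and 2 higher, beside 17.3% and 34.3% of all genes. Of 21 in the restricted fit 6 were lower, beside 7.02% of all genes there. AT5G60390, a gene for eEF1A, which carries aminoacyl-tRNA to the ribosome, measured 250, 348 and 458 CPM at 3 d, against 1841, 2221 and 2007 CPM at 1 d (log2 fold change -2.52, SE 0.25, edgeR adjusted p = 1.28e-07). Near-identical eEF1A genes exist, and the authors kept only reads with a single mapping place, so reads shared by the copies were not counted. The exchange factor subunit eEF-1Bb1 (AT1G30230) was at 413, 541 and 564 CPM at 3 d, against 2818, 2484 and 2283 CPM at 1 d (log2 fold change -2.32, SE 0.23).

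The calls of initiation factors depended on the fit. Of 51 tested (median log2 fold change -1.0), 26 were lower and 1 higher, beside 17.3% and 34.3% of all genes. The restricted fit called 2 of 45 lower and 2 higher (median -0.36), beside 7.02% and 7.39% of all genes there. With no scaling factor 4 of 51 were lower and 5 higher, beside 948 lower and 7875 higher of all 19486 genes. The 2 lower in the restricted fit were FBR12 (AT1G26630), which encodes eIF5A, and EIF3K (AT4G33250). FBR12 was at 101, 143 and 210 CPM at 3 d, against 724, 769 and 677 CPM at 1 d (log2 fold change -2.24, SE 0.25, and -1.55 in the restricted fit). EIF4A1 (AT3G13920), the RNA helicase of the cap complex, was called lower in the first fit only (-1.36 and -0.65). AT1G76720 (an eIF2 family product) and AT1G66070 (an eIF3 subunit) were called higher in the restricted fit, by 1.58 and 1.19, with 0.88 and 0.49 in the fit on all genes, where AT1G76720 was called at 1.02 without the first 1 d library.

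Nucleolar factors, which assemble ribosomes, were lower in 11 of 19 cases and higher in 0, beside 17.3% and 34.3% of all genes. Their median log2 fold change was -1.06. Of 17 in the restricted fit 4 were lower (median -0.40), beside 7.02% of all genes there. AT3G03920 encodes GAR1, a protein of the box H/ACA particles that modify ribosomal RNA. It measured 35.2, 45 and 81 CPM at 3 d, against 555, 464 and 355 CPM at 1 d (log2 fold change -3.05, SE 0.28, edgeR adjusted p = 4.99e-08). FIB1 (AT5G52470), a fibrillarin that methylates ribosomal RNA, was at 167, 174 and 221 CPM at 3 d, against 776, 737 and 668 CPM at 1 d (log2 fold change -1.95, SE 0.21). Nucleolin, NUC-L1 (AT1G48920), was at the edge of the threshold, with a log2 fold change of -1.0 that became -0.95 without the first 3 d library and -0.30 in the restricted fit.

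**Figure D2:**
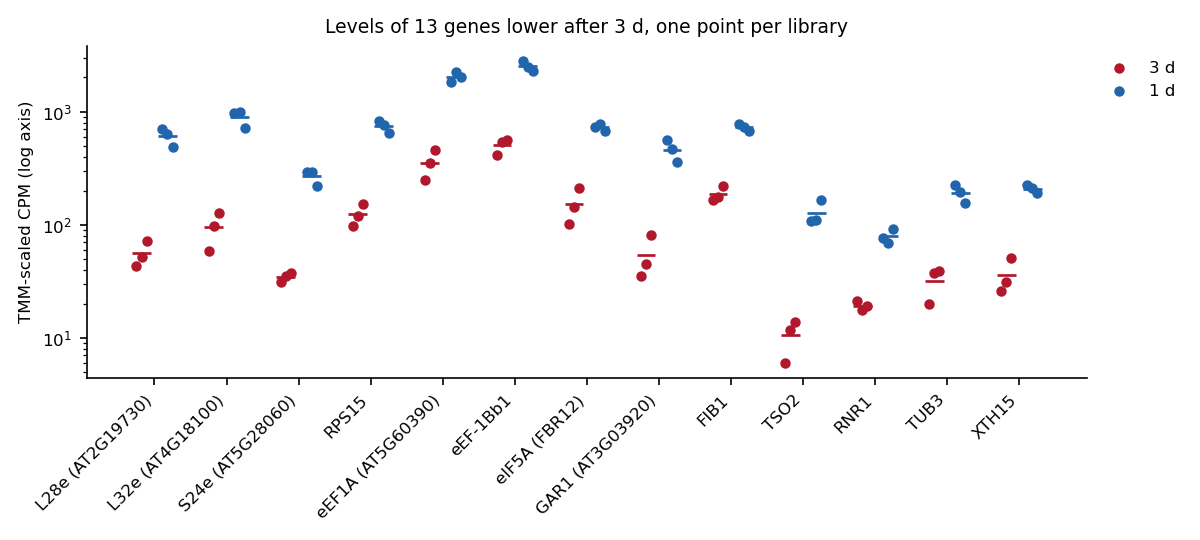
TMM-scaled CPM on a log axis for 13 genes lower at 3 d, with a point for each of the 3 libraries at 3 d (left, red) and at 1 d (right, blue) and a bar for the mean. In every gene drawn the highest 3 d library lies below the lowest 1 d library.

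Within single seeds the decrease reached most seeds. Cytosolic ribosomal protein genes took a median of 0.318%, 0.402% and 0.490% of a seed's nuclear UMIs in the 3 d libraries, against 1.45%, 1.75% and 1.41% in the 1 d libraries. Among the 96 seeds at 3 d the share ran from 0.198% to 0.815%, and 85 lay below the lowest of the 96 seeds at 1 d, which ran from 0.616% to 2.94%. The seeds of both time points overlapped in off-nuclear percent between 38.0% and 71.0%. In that range, chosen after the data had been seen, 64 seeds at 3 d had a median of 0.453% (0.256% to 0.815%) and 5 seeds at 1 d had a median of 1.04% (0.616% to 1.82%). The part of the off-nuclear share in the remaining difference was not tested.

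**Figure D3:**
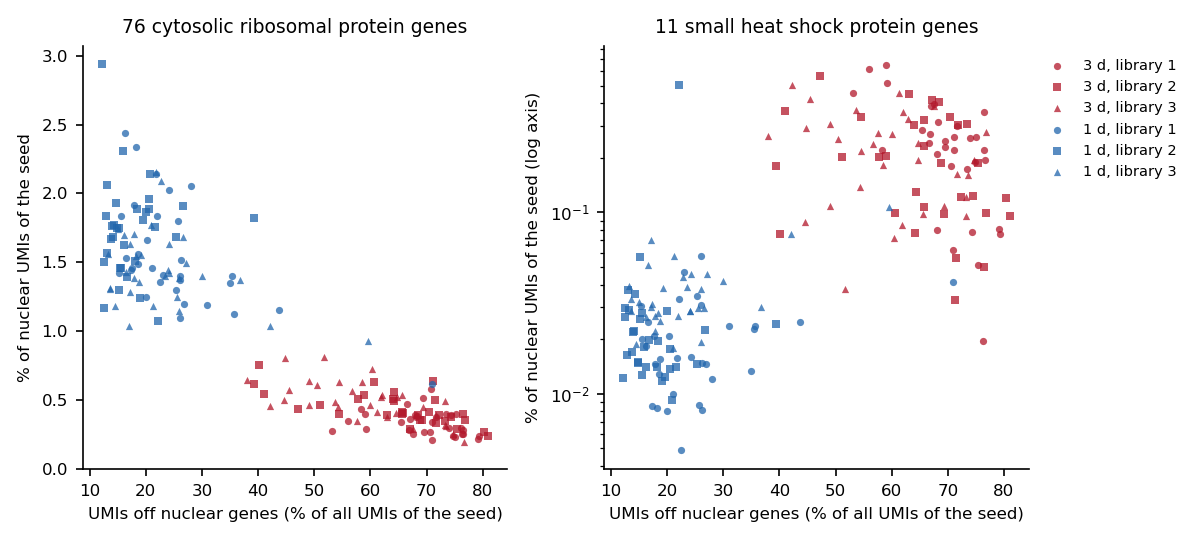
Share of each seed's nuclear UMIs on 76 cytosolic ribosomal protein genes (left, linear axis) and on 11 small heat shock protein genes (right, log axis) against the percent of its UMIs off nuclear genes, for 96 seeds at 3 d (red) and 96 at 1 d (blue), with a marker shape for each library. The 3 d seeds lie low on the left, at 0.198% to 0.815%, and mostly high on the right, with a median of 0.218% against 0.0239% at 1 d.

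Genes of DNA replication did not move as a group (median log2 fold change 0.04). Of 11 tested, 3 were lower and 3 higher (27.3% each), beside 17.3% and 34.3% of all genes. Genes for both subunits of ribonucleotide reductase, which makes the building blocks of DNA, were lower in both fits. TSO2 (AT3G27060), the small subunit, measured 6.03, 11.7 and 13.9 CPM at 3 d, against 109, 110 and 164 CPM at 1 d (log2 fold change -3.51, SE 0.28, edgeR adjusted p = 1.12e-08). RNR1 (AT2G21790), the large subunit, was at 21.11, 17.62 and 19.09 CPM at 3 d, against 75.6, 69.3 and 91.5 CPM at 1 d (log2 fold change -2.03, SE 0.22). PCNA2, the sliding clamp of replication, was also lower (log2 fold change -2.01, SE 0.40). The higher replication genes include PRL (AT4G02060), a subunit of the MCM helicase, whose share followed the off-nuclear percent at both time points (rho 0.391 and 0.359).

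Tubulins (median log2 fold change -1.07) were lower in 7 of 14 cases and higher in 1, beside 17.3% and 34.3% of all genes. They were lower in 3 of 12 in the restricted fit, beside 7.02% of all genes there. TUB3 (AT5G62700) was at 20.1, 37.2 and 38.7 CPM at 3 d, against 225, 196 and 155 CPM at 1 d (log2 fold change -2.55, SE 0.24). Histones were lower in 21 of 39 cases in the fit on all genes, beside the same 17.3%. They were lower in 1 of 36 in the restricted fit, beside 7.02% of all genes there. With the third 3 d library left out of that fit as well, 9 of 36 were lower, beside 941 of all 10325 genes. HTA8 (AT2G38810), an H2A histone, was at 1.00, 0.979 and 2.58 CPM at 3 d, against 32.1, 24.7 and 17.1 CPM at 1 d, and was not in the restricted fit (rho 0.307 among 3 d seeds).

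The cell wall loosening list, expansins and xyloglucan endotransglucosylases, did not move as a group. Of 38 tested, 6 were lower (15.8%) and 15 higher (39.5%), beside 17.3% and 34.3% of all genes, with a median log2 fold change of 0.43 that turned to -0.06 in the restricted fit. XTH15 (AT4G14130) was at 26.1, 31.3 and 50.6 CPM at 3 d, against 223, 211 and 192 CPM at 1 d (log2 fold change -2.48, SE 0.24, and -1.79 in the restricted fit). XTH11 (AT3G48580) was at 171, 246 and 218 CPM at 3 d, against 820, 624 and 830 CPM at 1 d (log2 fold change -1.84, SE 0.22). These were the 2 members called lower in both fits. EXPA4 (AT2G39700) was not called, with a log2 fold change of -0.72, but its 3 d libraries differed widely at 43.2, 114 and 201 CPM, and without the third it was called at -1.43. All 15 higher members were absent from the restricted fit. XTH26 (AT4G28850), for example, was at 33.2, 36.2 and 28.9 CPM at 3 d, against 1.89, 0.90 and 0.924 CPM at 1 d. Its rho was 0.453 among 3 d seeds and 0.570 among 1 d seeds, where few UMIs were counted.

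**Figure D4:**
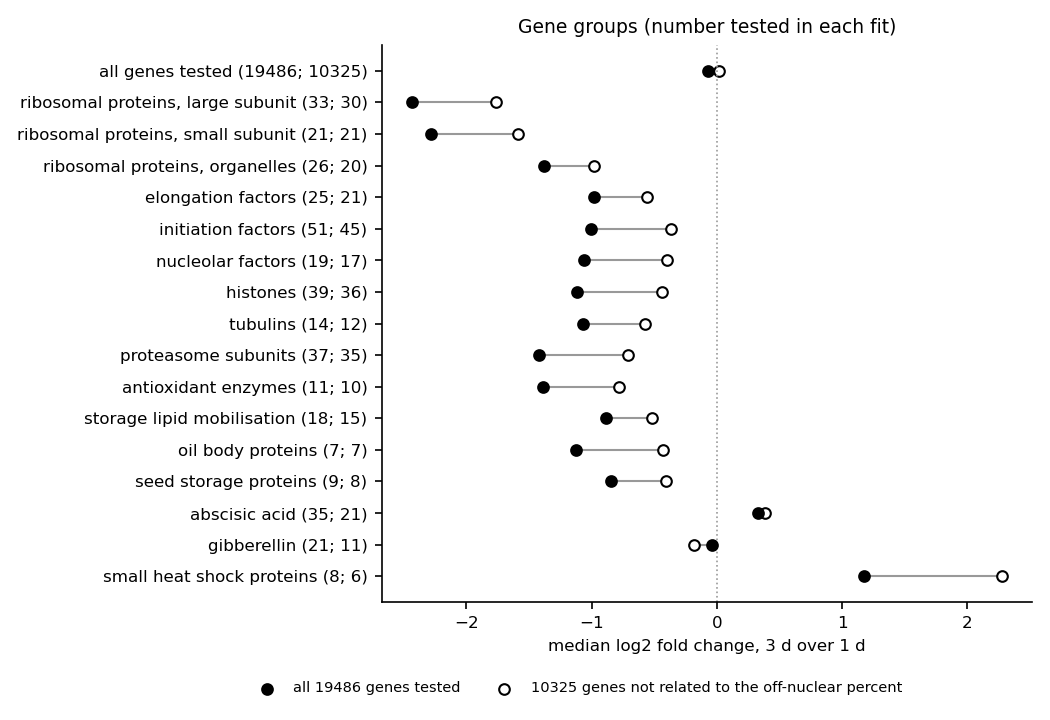
Median log2 fold change of 3 d over 1 d for 16 gene groups and for all genes, in the fit on all genes (filled) and in the fit without genes related to the off-nuclear percent (open), with the number of members tested in each. Both ribosomal subunits lie farthest to the left in both fits (-2.44 and -2.28, then -1.76 and -1.58) and, of the groups drawn, small heat shock proteins farthest to the right (1.17, then 2.28). Nuclear photosynthesis genes, not drawn, had medians of 1.6 and 0.46.

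The proteasome, which degrades tagged proteins, was lower in 32 of 37 subunits and higher in 0, beside 17.3% and 34.3% of all genes. Its median log2 fold change was -1.42. Of 35 subunits in the restricted fit 8 were lower (median -0.71), beside 7.02% of all genes there. PAA2 (AT2G05840), a subunit of the outer ring, was at 54.3, 58.7 and 55.2 CPM at 3 d, against 237, 204 and 216 CPM at 1 d (log2 fold change -1.97, SE 0.20). PBG1 (AT1G56450), of the inner ring, was at 41.2, 36.2 and 59.3 CPM at 3 d, against 160, 176 and 154 CPM at 1 d (log2 fold change -1.81, SE 0.22). In both genes the libraries of a group lay close together and the groups were well apart.

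Storage protein genes were partly lower, while late embryogenesis abundant proteins, which protect drying cells, showed no common direction. Of 66 tested late embryogenesis abundant genes 14 were lower (21.2%) and 17 higher (25.8%), beside 17.3% and 34.3% of all genes. In the restricted fit 3 of 42 were lower and 1 higher, beside 7.02% and 7.39% of all genes there. Of 9 storage protein genes 4 were lower and 0 higher, and 2 of 8 in the restricted fit. SESA2 (AT4G27150), a 2S albumin, was at 255, 355 and 437 CPM at 3 d, against 2685, 2411 and 2742 CPM at 1 d (log2 fold change -2.90, SE 0.25). SESA1 (AT4G27140) was at 52.3, 54.8 and 196 CPM at 3 d, against 679, 650 and 703 CPM at 1 d (log2 fold change -2.70, SE 0.36). Closely related albumin genes stand side by side on chromosome 4, and any reads that mapped to more than 1 of them were not counted. The albumin SESA5 and the globulin CRU3 had log2 fold changes of -0.48 and -0.34 that did not pass the test and turned to 0.23 and 0.38 in the restricted fit. The globulin CRA1 (AT5G44120), with the highest level at both time points, was called lower in the first fit (-1.36) and not in the restricted one (-0.64).

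Genes that open the oil reserves were lower in 8 of 18 cases and higher in 1, beside 17.3% and 34.3% of all genes. Their median log2 fold change was -0.89, and 3 of 15 were lower in the restricted fit (7.02% of all genes there). MFP2 (AT3G06860), an enzyme of peroxisomal fatty acid breakdown, was at 68.4, 88.1 and 123 CPM at 3 d, against 403, 416 and 372 CPM at 1 d (log2 fold change -2.07, SE 0.23). PMDH1 (AT2G22780), a peroxisomal malate dehydrogenase, was at 47.3, 57.8 and 96.5 CPM at 3 d, against 323, 255 and 282 CPM at 1 d (log2 fold change -2.06, SE 0.24). The glyoxylate cycle enzymes ICL and MLS were called in the first fit only (-1.57 and -1.48, then -0.85 and -0.78). Oleosins and other oil body proteins were lower in 5 of 7 cases (median log2 fold change -1.12), and in 0 of 7 in the restricted fit (median -0.43).

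Antioxidant enzymes were lower in 7 of 11 cases and higher in 1, beside 17.3% and 34.3% of all genes. Their median log2 fold change was -1.39, and 3 of 10 were lower in the restricted fit (7.02% of all genes there). CSD2 (AT2G28190), a copper and zinc superoxide dismutase, was at 30.2, 48.9 and 55.2 CPM at 3 d, against 216, 219 and 186 CPM at 1 d (log2 fold change -2.18, SE 0.23). MSD1 (AT3G10920), the mitochondrial enzyme, was at 70.4, 96.9 and 101 CPM at 3 d, against 328, 326 and 267 CPM at 1 d (log2 fold change -1.77, SE 0.21). The seed peroxiredoxin PER1 (AT1G48130) had a log2 fold change of -1.73 (SE 0.27), and -1.03 in the restricted fit.

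Small heat shock proteins were higher at 3 d. Of 8 tested members 5 were higher and 0 lower (34.3% of all genes were higher), and 5 of 6 were higher in the restricted fit (7.39% of all genes there). HSP17.6A (AT5G12030), a cytosolic protein, measured 1145, 1134 and 1152 CPM at 3 d, against 87.0, 130 and 161 CPM at 1 d. Its log2 fold change was 3.18 (SE 0.25, edgeR adjusted p = 8.6e-09), and 3.89 in the restricted fit. HSP17.4 (AT3G46230) was at 587, 533 and 747 CPM at 3 d, against 126, 192 and 170 CPM at 1 d (log2 fold change 1.94, SE 0.22). The mitochondrial HSP23.6-MITO (AT4G25200) was at 131, 135 and 100 CPM at 3 d, against 10.4, 20.3 and 16.6 CPM at 1 d (log2 fold change 2.93, SE 0.24). No library of one time point reached the other in these 3 genes.

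Among 3 d seeds the share of these genes was lower where the off-nuclear percent was higher, with a rho of -0.383 for HSP17.6A and -0.331 for HSP17.4. Among 1 d seeds the rho of these genes was 0.0837 and 0.201, and the median over the 8 tested members was 0.248. Within single seeds the 11 small heat shock protein genes together took a median of 0.236%, 0.188% and 0.228% of nuclear UMIs in the 3 d libraries, against 0.0171%, 0.0189% and 0.0307% in the 1 d libraries. A single seed at 1 d reached 0.505%, so both time points overlapped over seeds. Between 38.0% and 71.0% off-nuclear UMIs the 64 seeds at 3 d had a median of 0.245% (0.038% to 0.652%) and the 5 seeds at 1 d had a median of 0.0411% (0.0242% to 0.107%). ATHSP22.0 (AT4G10250) was also called in both fits (log2 fold change 1.22, SE 0.27), but without the first 3 d library its value was 0.92 and the call was lost. AT1G53540 was not in the restricted fit (rho 0.35 among 1 d seeds), was called in the first fit (1.12) and lost the call without the first or second 3 d library or the first or the third 1 d library (0.66 to 1.07).

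Of 10 tested large chaperones and heat shock factors 4 were higher and 3 lower, beside 34.3% and 17.3% of all genes. The restricted fit called 5 of 8 higher and 3 lower, beside 7.39% and 7.02% of all genes there. HSP101 (AT1G74310), a disaggregase that heat induces, was at 76.4, 45 and 59.9 CPM at 3 d, against 28.4, 35.1 and 18.9 CPM at 1 d (log2 fold change 1.13, SE 0.25, and 1.84 in the restricted fit). It lost the call without the first 3 d library (0.91) or the third 1 d library (0.82). MBF1C (AT3G24500), a heat-induced coactivator, had 1.10 (SE 0.26), and fell under the threshold without the second 3 d library (0.99), the second 1 d library (0.96) or the third 1 d library (0.76). HSFA9 (AT5G54070), the heat shock factor of seed maturation, was called higher only in the restricted fit (1.67, against 0.98 in the first, which was called at 1.15 without the first 3 d library). HSP90.1 (1.38, against 0.67) and the heat-induced HSP70 (1.13, against 0.44) were likewise called there alone.

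The 3 lower members were HSC70-1, BIP1 and BIP2. HSC70-1 (AT5G02500), a cytosolic chaperone present without heat, was at 142, 195 and 257 CPM at 3 d, against 886, 1026 and 858 CPM at 1 d (log2 fold change -2.21, SE 0.24, edgeR adjusted p = 3.19e-07). BIP1 (AT5G28540) and BIP2 (AT5G42020), the HSP70 proteins of the endoplasmic reticulum, had log2 fold changes of -1.94 (SE 0.21) and -1.99 (SE 0.22). The 2 sequences are close, and any reads that mapped to both were not counted. All 3 were called lower in both fits.

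**Figure D5:**
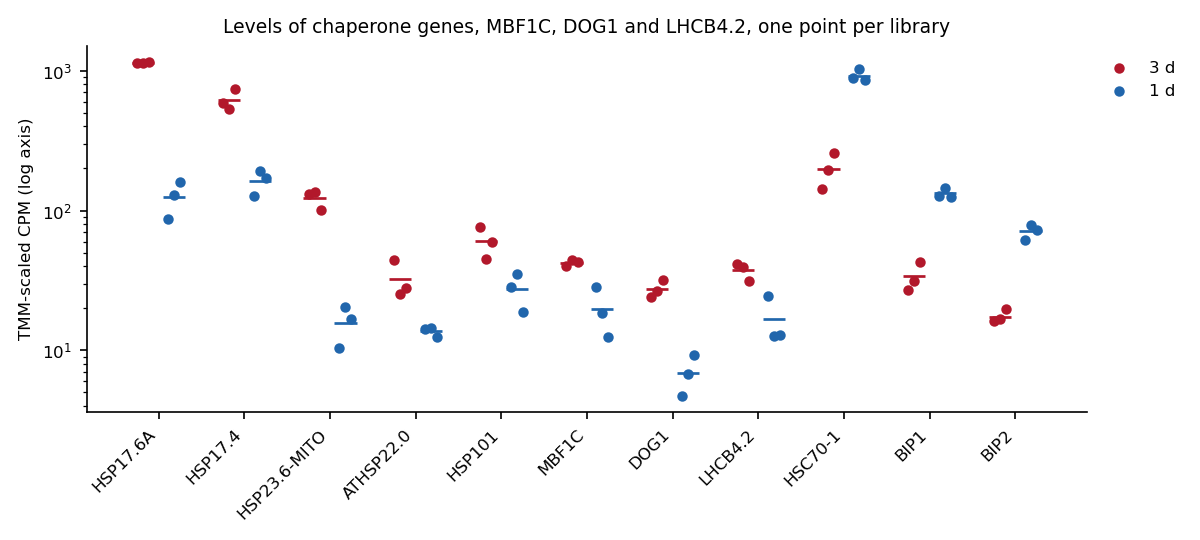
TMM-scaled CPM on a log axis for 8 chaperone genes, MBF1C, DOG1 and LHCB4.2, with a point for each of the 3 libraries at 3 d (left, red) and at 1 d (right, blue) and a bar for the mean. HSP17.6A sits at 1134 to 1152 CPM at 3 d and at 87.0 to 161 CPM at 1 d, while HSC70-1, BIP1 and BIP2 lie lower at 3 d.

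Of the dormancy and light regulators 2 of 14 were higher and 2 lower (14.3% each), beside 34.3% and 17.3% of all genes. The restricted fit called 1 of 12, DOG1. DOG1 (AT5G45830), which delays germination, was at 24.1, 26.4 and 32.0 CPM at 3 d, against 4.73, 6.75 and 9.24 CPM at 1 d. Every 3 d library lay above every 1 d library, with a log2 fold change of 2.00 (SE 0.31, edgeR adjusted p = 1.84e-05), and of 2.69 in the restricted fit. DOG1 averaged 0.823 UMIs per seed, so a filter of 1 UMI per seed would leave it out. The paper found its signal too noisy for direct analysis, perhaps because it lies near the limit of detection. MFT (AT1G18100, annotated as E12A11), which acts in hormone responses of the germinating seed, was at 99.5, 163 and 205 CPM at 3 d, against 492, 499 and 516 CPM at 1 d. It was called lower in the first fit (log2 fold change -1.68, SE 0.24) and just missed the fold threshold in the restricted one (-0.99). PHYB (AT2G18790), the red light receptor, had a log2 fold change of -1.12, and -0.43 in the restricted fit. PIF4 (AT2G43010), a light-controlled transcription factor, was called higher at 1.89, with a rho of 0.516 among 3 d seeds. SOM was not called (-0.71 and -0.02), but without the third 3 d library it was called lower at -1.0.

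Gibberellin genes showed no common direction. Of 21 tested, 4 were lower (19.0%) and 7 higher (33.3%), close to the 17.3% and 34.3% of all genes. With no scaling factor 0 were lower and 9 higher, beside 948 lower and 7875 higher of all 19486 genes. The restricted fit called 0 of 11, or 1 higher without the third 3 d library. GA20OX3 (AT5G07200), a late step of synthesis, was at 257, 419 and 603 CPM at 3 d, against 1033, 1126 and 1323 CPM at 1 d (log2 fold change -1.44, SE 0.26, edgeR adjusted p = 0.000112). In the restricted fit its value was -0.76. The repressors RGL2 and RGA1 had -1.31 and -1.13, then -0.61 and -0.42, and RGA1 was lost without the third 3 d library (-0.92). GA3 (AT5G25900), an early enzyme, had -1.01, -0.91 without the first 3 d library and -0.32 in the restricted fit. GA3OX2 (AT1G80340), which makes the active hormone, was called higher, at 71.4, 48.9 and 44.4 CPM at 3 d, against 5.67, 4.05 and 8.31 CPM at 1 d, but its share followed the off-nuclear percent (rho 0.510 among 3 d seeds and 0.306 among 1 d seeds). The receptor gene GID1A was not called (-0.88), and was called lower without the second or the third 3 d library or the first or second 1 d library (-1.07 to -1.02).

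Abscisic acid genes were rarely lower. Of 35 tested, 8 were higher (22.9%, beside 34.3% of all genes) and 1 lower (2.86%, beside 17.3%). With no scaling factor 17 were higher and 0 lower, beside 7875 higher and 948 lower of all 19486 genes. The restricted fit called 7 of 21 higher, beside 7.39% of all genes there, and 0 lower. The lower one was SNRK2.2, a kinase of the pathway (log2 fold change -1.06, then -0.36). Members called higher in the restricted fit alone included NCED9 (1.31), an enzyme of synthesis, the bZIP factor ABF4 (1.16) and the phosphatases ABI2 (1.43) and HAB1 (1.15), with 0.61, 0.45, 0.74 and 0.45 in the fit on all genes. ABI5, a bZIP factor that arrests the young seedling, was at 110, 139 and 177 CPM at 3 d, against 238, 236 and 222 CPM at 1 d (-0.70, and -0.00 in the restricted fit). ABI3, a master factor of seed maturation, had -0.82 and -0.13 and was called lower without the third 3 d library (-1.08). OST1, another kinase, and CYP707A2, which breaks the hormone down, were called higher in the first fit (3.05 and 1.53) and followed the off-nuclear percent (rho 0.550 and 0.382 among 3 d seeds). Without the first 3 d library CYP707A2 lay just under the fold threshold (0.998).

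Ethylene genes gave 3 higher (15.8%) and 2 lower (10.5%) of 19, both below the shares of all genes (34.3% and 17.3%), and 0 of 12 in the restricted fit. ACS4 (AT2G22810), an enzyme of ethylene synthesis, was called higher, at 45.2, 46.0 and 32.5 CPM at 3 d, against 2.36, 0.90 and 1.39 CPM at 1 d (log2 fold change 4.66, SE 0.37). Its rho was 0.234 among 3 d seeds and 0.435 among 1 d seeds, so it was not in the restricted fit. Only the 1 d value passed the limit, at levels that leave most 1 d seeds without a UMI of ACS4. The receptor ERS2 (-1.64, then -0.95) and EBF2 (-1.05, then -0.36), which degrades the transcription factors of the pathway, were called lower in the first fit, and EBF2 was lost without the first 3 d library (-0.90) or the third 1 d library (-0.94).

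Genes of the dark and sugar starvation response were higher in 3 of 19 cases (15.8%, beside 34.3% of all genes) and lower in 0. With no scaling factor 9 were higher, beside 7875 of all 19486 genes. The restricted fit called 4 of 14 higher, beside 7.39% of all genes there. ASN1 (AT3G47340), an asparagine synthetase, was at 95.5, 108 and 154 CPM at 3 d, against 72.3, 94.5 and 82.2 CPM at 1 d (log2 fold change 0.54, and 1.23 in the restricted fit). Nuclear photosynthesis genes were higher in 21 of 31 cases, of which 2 were also called in the restricted fit, LHCB4.2 (1.14, then 1.84) and PSAD-2 (1.23, then 1.93). Both lost the call without the third 1 d library (0.89 and 0.91), LHCB4.2 also without the second (0.88), and PSAD-2 also without the first or second 3 d library (0.999 and 0.93). RBCS1A (AT1G67090), a Rubisco small subunit, was lower, at 27.2, 6.85 and 12.9 CPM in 3 d seeds and 117, 99.0 and 68.4 CPM in 1 d seeds, and was not in the restricted fit (rho 0.332 among 3 d seeds).

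The 12 genes with the largest increase all passed the limit on rho and were left out of the restricted fit. Their mean levels were 20.1 to 52.7 CPM at 3 d, against 0.150 to 0.619 CPM at 1 d. Their rho among 1 d seeds was 0.475 to 0.587. At these levels most 1 d seeds had no UMI of the gene. The rho used 0.5 added UMIs, so the 1 d value can reflect seed depth alone and cannot show a relation. AT5G04355, AT3G42713 and AT3G42540 passed the limit by the 1 d value only (0.196, 0.225 and 0.227 among 3 d seeds). The others passed it among 3 d seeds too. The 12 genes include AMS, a factor of anther development, PIN5, an auxin carrier, and CLE22, a peptide. The 12 with the largest decrease had log2 fold changes of -4.76 to -3.31, and 8 of them stayed in the restricted fit. AT2G43590, a chitinase family gene, led them with 5.03, 8.81 and 11.9 CPM at 3 d, against 307, 187 and 254 CPM at 1 d, and was not in the restricted fit (rho 0.365 among 3 d seeds). AT2G40205, AT1G15930, AT2G19730 and AT3G60245 of this set belong to ribosomal protein families.

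Libraries from another experiment of the series allow a further look at levels at 3 d. Its 3 Col-0 libraries of seeds induced for 3 d had median off-nuclear shares of 10.9% to 12.4%. They were made in another experiment, so unscaled CPM are set side by side without a test. The counts given below cover named genes only, which were picked in part for their calls against the same 1 d libraries. No share over all genes was counted beside them, so they are a description. RPS15 averaged 145 CPM in the 3 d libraries of the time course and 181 CPM in those other 3 d libraries, against 595 CPM at 1 d. AT2G19730 averaged 65.4 and 122 CPM, against 481 CPM at 1 d, and TSO2 averaged 12.3 and 7.72 CPM, against 103 CPM at 1 d. Of the 63 named genes called lower, 58 averaged less in the other 3 d libraries than at 1 d and 5 did not. The 5 were RGA1, SNRK2.2, PHYB, EBF2 and LCR67, none of them called in the restricted fit. RGA1, for example, averaged 39.7 and 67.5 CPM, against 55.6 CPM at 1 d, and LCR67, a defensin-like gene, averaged 24220 and 40210 CPM, against 35410 CPM at 1 d. GA3 was close to its 1 d level, with 162 and 216 CPM, against 225 CPM at 1 d. HSP17.6A averaged 1353 and 2624 CPM, against 102 CPM at 1 d. DOG1 averaged 32.4 and 76.6 CPM, against 5.60 CPM at 1 d, and ACS4 averaged 49.0 and 114 CPM, against 1.22 CPM at 1 d. Of the 34 named genes called higher, 18 averaged at least as much in the other 3 d libraries as at 1 d and 16 averaged less. OST1 averaged 101 and 3.96 CPM, against 8.16 CPM at 1 d, GA3OX2 averaged 65.6 and 1.88 CPM, against 4.85 CPM at 1 d, and the 12 genes with the largest increase averaged at most 0.585 CPM there.

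The endosperm marker EPR1 (AT2G27380), a cell wall protein of the tissue that encloses the embryo, was at 479, 414 and 2234 CPM at 3 d, against 4080, 3392 and 4920 CPM at 1 d. The third 3 d library stood apart from the other 2, and the EPR1 log2 fold change was -1.98 with it (SE 0.45) and -3.30 without it. EPR1 was not in the restricted fit (rho 0.416 among 3 d seeds). Of the 5 endosperm markers 3 were tested, and 2 were called lower, EPR1 and MFT, which is also counted among the dormancy regulators above. The restricted fit called 0 of 2. The part of the endosperm in the changes of the gene groups above was not tested.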

How the data were processed

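Single seeds were crushed and their polyadenylated RNA was reverse transcribed with barcoded oligo(dT) primers that carry UMIs. The authors mapped the reads with STAR 2.7.8a to TAIR10 with Araport11 annotation and deposited raw UMI counts per gene and seed, counted on the sense strand with BRB-seqTools. Rows that name no gene and organellar genes were left out of library sizes and tests. The UMIs off nuclear genes were 60.1% to 70.7% (library medians) at 3 d and 15.68% to 22.75% at 1 d. Counts of kept seeds (at least 5000 nuclear UMIs) were summed per library and tested with edgeR 4.0.16 in R 4.3.3 (filterByExpr, TMM, quasi-likelihood F test, Benjamini-Hochberg adjustment over all genes tested). DESeq2 1.42.0, other scalings, filters and gene sets, all 6 time points in 1 fit, a replicate block and leaving out each library were the alternatives. The fit and the rho were run on simulated data. The genes simulated for rho had many more UMIs per seed than most genes called higher (median 0.365), so low counts were not covered. Genes were named by rule: the 12 largest changes in each direction that did not overlap and reached 20 CPM in the higher group, up to 4 called members of a list with the smallest p and members needed to describe it, the hormone and dormancy lists, and the 5 highest levels at each time point. The genes and lists were chosen with earlier results of these data known, and the ribosomal and proteasome lists were trimmed by product name. Counting calls in both fits, the restricted fit without the third 3 d library, the seeds within a shared off-nuclear range and the levels from the other experiment were added after seeing the data. Promoter sequences are from RefSeq (TAIR10.1), in which all 36899 nuclear rows were matched by locus.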

Additional observations from a re-analysis of the deposited data

How the results depend on the processing

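Genes called lower at 3 d numbered 2192 with upper quartile scaling, 948 with no scaling factor, 5909 with no filter on low counts, 831 under a stricter filter (1 UMI per seed on average), 1240 without genes correlated with off-nuclear UMIs (r over 0.3), 725 in the restricted fit and 941 in the restricted fit without the third 3 d library (added after seeing the data). Genes called higher numbered 10877 with no filter, 1468 under the stricter filter, 2362 without the correlated genes, 763 in the restricted fit and 918 there without the third 3 d library. The median log2 fold change of translation genes was -1.21 with no scaling factor, -1.37 under the stricter filter, -1.34 without the correlated genes, -1.24 in the restricted fit and -1.37 there without the third 3 d library. The cause was not tested.

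Leaving out 1 library at a time gave 7281 to 8010 higher genes, 3276 to 4616 lower genes, 309 to 339 lower translation genes and a translation median of -2.07 to -1.74. CRU3 and SESA5, not called, turned to 0.28 and 0.14 with no scaling factor, 0.28 and 0.14 under the stricter filter, 0.15 and 0.013 without the correlated genes, 0.38 and 0.23 in the restricted fit and 0.52 and 0.34 there without the third 3 d library. HSP70, not called in the fit on all genes and called higher in the restricted fit (1.13), ran from -0.081 without the third 3 d library to 0.63 without the first. No named gene that was called changed direction. With no scaling factor 3 histones, 11 proteasome subunits and 4 initiation factors were lower, and 5 initiation factors higher. Libraries with the same number share only a number (correlations of their deviations 0.191, 0.0174 and 0.0470), and with the replicate block 6695 genes were higher and 3434 lower, with 319 lower translation genes.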

Other observations

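Lists for 2 further groups were chosen by product name after values had been seen, and are given as counts. Subunits of the respiratory chain and ATP synthase, the mitochondrial machinery that makes ATP, were lower at 3 d in 69 of 93 tested and higher in 4, with a median log2 fold change of -1.49, beside 17.3% of all genes lower and 34.3% higher. The restricted fit called 31 of 81 lower and 0 higher (median -0.86), and with no scaling factor 38 of 93 were lower and 6 higher. Proteins of entry into and folding in the endoplasmic reticulum were lower in 34 of 67 and higher in 1 (median -1.09). The restricted fit called 10 of 58 lower and 1 higher (median -0.46).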
